A study of Mus musculus with 9 samples.

Results

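The genes described here are 30 genes of cholesterol synthesis, sensing, intracellular transfer, efflux and esterification, measured by RNA sequencing in a mouse podocyte line. They were chosen by gene symbol, with earlier results of these data known, as were the other lists below. All 30 were found among the 55385 genes of the deposited table. All 30 also passed the filter on low counts, which left 17680 genes for testing. The members are 18 enzymes of cholesterol synthesis (Acat2, Hmgcs1, Mvk, Pmvk, Mvd, Idi1, Fdps, Fdft1, Sqle, Lss, Cyp51, Tm7sf2, Msmo1, Nsdhl, Hsd17b7, Ebp, Sc5d and Dhcr7) and 4 genes of sterol sensing (Srebf2, Scap, Insig1 and Insig2). The others are the sterol carriers Stard4 and Stard5, the efflux transporters Abca1 and Abcg1, the oxysterol receptors Nr1h2 and Nr1h3, and the acyltransferases Soat1 and Soat2. The list was named for cholesterol uptake as well, but no member is a lipoprotein receptor, and those receptors are described below as a separate list.

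Cholesterol is built in the endoplasmic reticulum from acetyl-CoA through mevalonate, farnesyl diphosphate, squalene and lanosterol. When sterol in that membrane is low, the escort protein SCAP carries the transcription factor SREBP-2, the product of Srebf2, to the Golgi, where it is cut into its active form and switches on the enzymes of the pathway. When sterol is high, INSIG proteins hold SCAP in place, oxysterols activate the LXR receptors, which raise efflux transporters, and acyltransferases store the surplus as cholesteryl ester in lipid droplets. Podocytes, which wrap the capillaries of the kidney's filter, are known to be sensitive to sterol overload.

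The line is labelled MCP5, podocyte, genotype WT, in all 9 libraries. High glucose (50 mmol/L), advanced glycation end products (AGEs, proteins modified by sugars, 400 µg/mL) and control, which is labelled blank, each had 3 libraries, and all groups were untreated otherwise as far as the labels say. How long the cells were treated, how much glucose the control medium held, and controls for osmolarity or for the carrier protein of AGEs are not stated in these sources. The titles number the libraries within a group but name no separate cultures, so the p-values measure only the spread between libraries, which may be technical, and the line stands for 1 cell line.

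Total counts ranged from 46284878 to 77242281 per library. On the first principal component of all genes, with 41% of the variance, the 3 high glucose libraries stood apart from the other 6. On the second, with 11.9%, AGEs library 3 stood apart at 82.8, against −46.2 to 9.11 in the other 8 libraries. Among the defining podocyte markers, Lmx1b had 0 counts in every library, and Wt1, Tcf21 and Ptpro had at most 11 counts in any library, while Nphs1 had 280 to 7040 and Synpo 374 to 6068. Some markers of other cell types also differed in high glucose. The counts of markers that rose or fell there against control stand against 19.6% of all genes tested called higher and 19.7% called lower. The 7 parietal epithelial markers summed to 1904 to 2146 CPM (counts scaled to library size with TMM factors) in high glucose, 917 to 1132 CPM in AGEs and 978 to 1023 CPM in control, and 4 of 7 rose in high glucose against control. Cd24a alone had a mean of 1062 CPM in high glucose and 184 CPM in control. The abundant Krt18 (495 and 503 CPM) and Pax8 (236.5 and 219.8 CPM) were not called. The 6 tubular markers summed to 615 to 744 CPM in high glucose, 153 to 242 CPM in AGEs and 176 to 192 CPM in control, and all 3 that were tested rose, while Slc34a1 had 0 counts. The podocyte markers summed to 1311 to 1389 CPM in high glucose, 1437 to 1517 CPM in AGEs and 1010 to 1333 CPM in control, and of 11 tested 4 rose and 1 fell. Most of the podocyte sum in high glucose was Actn4 (mean 485 CPM), Cd2ap (324 CPM) and Nes (243.5 CPM), of which only Nes was called. The leukocyte markers summed to 135 to 150.1 CPM in high glucose, 78.4 to 94.0 CPM in AGEs and 79.8 to 87.5 CPM in control. Of 6 tested, 2 rose (Csf1r and Cd14) and 1 fell (Cd68). Most of that sum was Csf1r, with 34600 counts over the 9 libraries, and Cd14, with 17989. The leukocyte genes Ptprc and Adgre1 had at most 72 and 15 counts in any library and were not called. The mesangial and fibroblast markers, of which 1 of 5 tested rose, summed to 52.3 to 57.2 CPM in high glucose, 29.1 to 38.7 CPM in AGEs and 37.1 to 39.5 CPM in control. The endothelial markers, of which 2 of 3 tested rose, summed to 12.4 to 15.0 CPM in high glucose, 4.25 to 4.90 CPM in AGEs and 5.48 to 5.85 CPM in control, and the endothelial genes Kdr, Emcn and Tie1 had at most 4 counts. The share of mitochondrial counts was 3.26% to 4.11% in high glucose, 2.96% to 3.30% in AGEs and 2.68% to 2.93% in control. The part of these markers and of the mitochondrial share in the results below was not tested. In bulk RNA fewer cells of a type and less RNA per cell cannot be told apart.

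The members spanned a wide range of levels. In control, compared per transcript length as FPKM (fragments divided by the length of the transcript and the depth of the library), Fdps, which makes farnesyl diphosphate, was the most abundant at 170 to 178 FPKM. Cyp51, the lanosterol demethylase, followed at 78.6 to 82.4 FPKM. A group of 10 members from Hmgcs1 to Ebp had mean levels between 37.6 and 56.5 FPKM, and each overlapped its neighbour in the order. The acyltransferase Soat1 had 6.48 to 7.06 FPKM and its relative Soat2 had 1.65 ± 0.228 FPKM (SD, n = 3). At the low end stood the efflux transporters Abcg1, with 1.04 to 1.20 FPKM, and Abca1, with 0.0735 to 0.109 FPKM. Nr1h3, which encodes LXR alpha, had 71 counts over all 9 libraries, with 0 counts in AGEs library 3 and control library 3, so that nothing can be read from its differences. In high glucose Fdps was still first at 99.7 to 112 FPKM, and Soat2 stood 29th of the 30, overlapping its neighbours Abca1 and Nr1h3.

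High glucose was set against control to ask which genes differ in podocytes kept at a high sugar level. The cholesterol genes did not move one way. Of the 30 members, 6 rose and 11 fell in high glucose (edgeR quasi-likelihood test, Benjamini-Hochberg adjusted p under 0.05 over all genes tested). That is 56.7% of the members, against 39.3% of all genes tested. Since members and lists were chosen with earlier results known, such shares here and below are not independent of these data. Higher calls took 19.6% and lower calls 19.7% of all genes. Abundant genes are called more often. In a separate fit kept to genes with a mean of at least 1 CPM, 51.3% of genes were called, against 19 of 28 members (67.9%). That fit called 9 members higher and 10 lower, so its share is not a part of the calls given above. The largest falls were in the ester-forming enzyme Soat2 and the sterol carrier Stard5, and the largest rise was in Dhcr7, the reductase of the last step of the pathway. The median log2 fold change was 0.03 over the members and 0.03 over all genes. The libraries of the 2 groups did not overlap for 21 members (10 higher and 11 lower in high glucose), as for 54.1% of all genes tested.

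Which of the smaller changes were called depended on how libraries were scaled. The TMM method, used throughout for CPM, gave high glucose libraries factors of 1.07 to 1.10 and the others 0.935 to 0.974. The 10 most abundant genes of each library took 4.18% to 4.76% of counts in high glucose, 6.87% to 7.48% in AGEs and 7.15% to 7.29% in control. With library totals alone, all genes had a median log2 fold change of 0.21 in place of 0.03, 67.8% of all calls were higher in place of 49.9%, and 13 members rose and 8 fell. The summed level of the 30 members lay lower in high glucose by the TMM scale, at 4317 to 4509 CPM against 4779 to 4972 CPM in control. As a share of all counts it was 0.484 ± 0.011% in high glucose, 0.429 ± 0.007% in AGEs and 0.469 ± 0.013% in control (SD, n = 3 each). The order of the high glucose and control means thus turned with the scale. By share of counts their libraries overlapped, at 0.473% to 0.496% and 0.458% to 0.484%. Under each of 18 alternative settings, 11 members stayed past the threshold. Hmgcs1, Pmvk and Dhcr7 were higher in all 18, and Mvd, Fdps, Lss, Ebp, Scap, Stard5, Soat1 and Soat2 were lower in all 18.

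**Figure D1:**
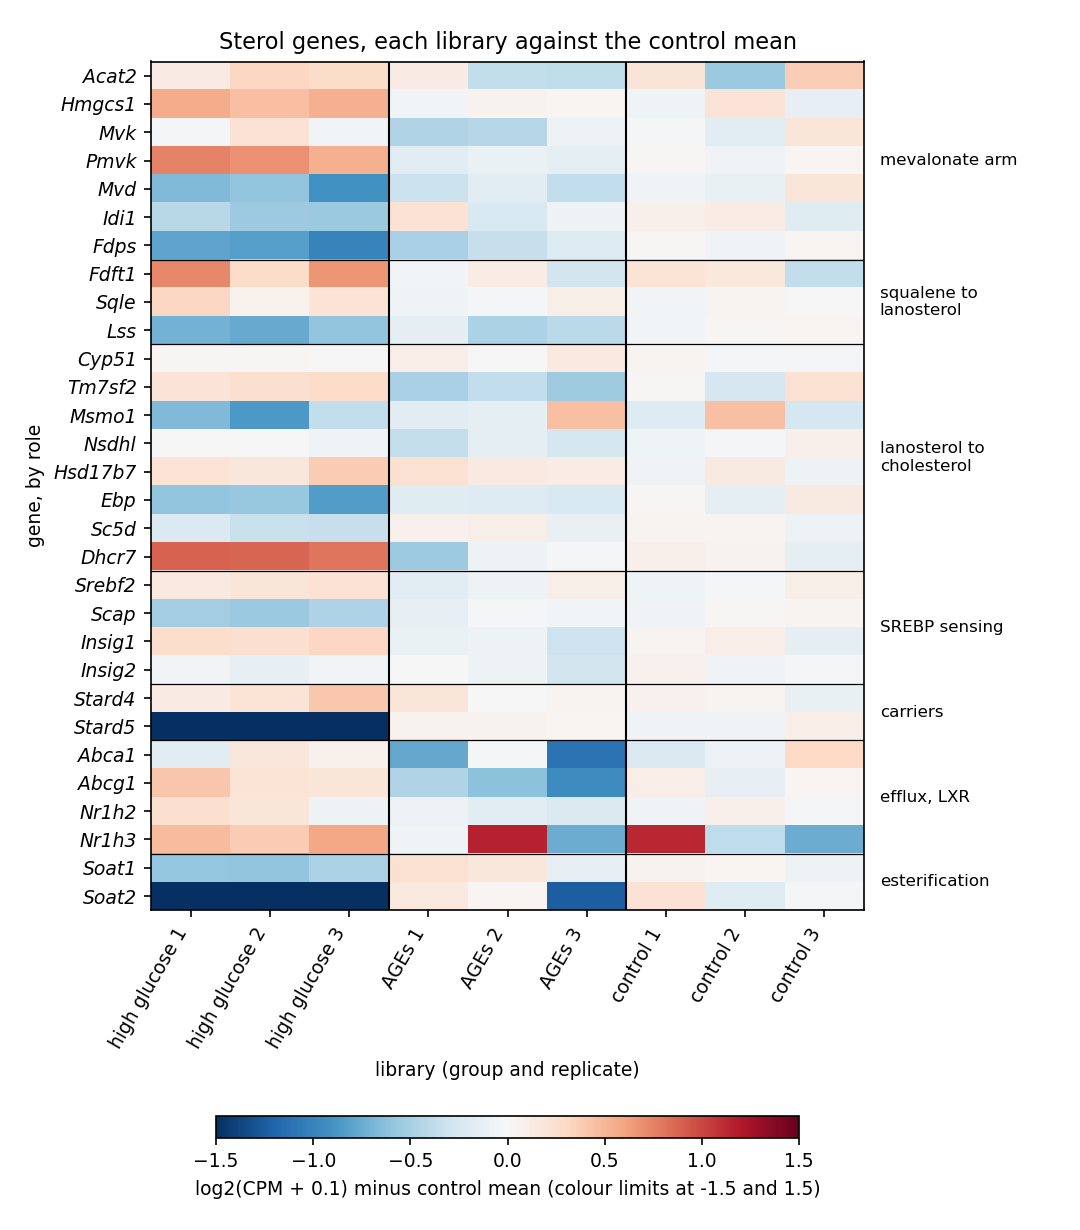
Each row is 1 of the 30 genes, grouped by role, and each column 1 library of high glucose, AGEs or control. Colour gives log2(CPM + 0.1) minus the mean of the 3 control libraries, with colours held at −1.5 and 1.5. Within the high glucose columns Stard5 and Soat2 are at the dark end of the scale, and the synthesis enzymes hold both red rows (Dhcr7, Pmvk, Hmgcs1) and blue rows (Fdps, Mvd, Lss, Ebp).

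The sequences upstream of 3 members are shown because Hmgcs1 is the one member with a match to the sterol regulatory element searched, and Dhcr7 and Stard5 had the largest rise and the largest fall among members with a promoter entry. Soat2, which fell further, is among the 6 members with no entry in the promoter table used, and Stard5 was taken in its place after the values were seen. RefSeq windows (GRCm38.p6, 250 bases before to 50 after the start) were at hand for 24 members, and RefSeq starts can differ by some bases from those of the deposited table. The 200 bases before each start site are printed in the direction of the gene, and capitals mark matches, on either strand, to TCACNCCAC (sterol regulatory element), CCAAT (bound by NF-Y) or GGGCGG (bound by Sp1).
Hmgcs1, chr13:119690151-119690350, plus strand: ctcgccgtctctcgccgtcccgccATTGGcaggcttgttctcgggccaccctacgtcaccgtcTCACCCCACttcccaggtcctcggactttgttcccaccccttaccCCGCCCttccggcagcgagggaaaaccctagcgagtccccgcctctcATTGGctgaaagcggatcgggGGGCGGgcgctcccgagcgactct
Dhcr7, chr7:143822967-143823166, plus strand: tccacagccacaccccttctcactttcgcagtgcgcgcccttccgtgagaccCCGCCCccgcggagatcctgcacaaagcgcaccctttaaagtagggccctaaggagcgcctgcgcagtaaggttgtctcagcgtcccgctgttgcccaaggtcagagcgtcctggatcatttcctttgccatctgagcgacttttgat
Stard5, chr7:83631817-83632016, plus strand: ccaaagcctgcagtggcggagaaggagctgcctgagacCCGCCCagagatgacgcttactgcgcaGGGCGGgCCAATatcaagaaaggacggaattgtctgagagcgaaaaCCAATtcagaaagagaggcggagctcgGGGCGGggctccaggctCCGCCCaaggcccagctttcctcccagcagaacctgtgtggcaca

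Within the full windows, TCACNCCAC was found in 1 of 24 members, against 1.48% of the 11338 tested genes that had a window. In Hmgcs1 it lay 137 to 129 bases before the start. CCAAT was found in 19 of 24 members, against 43.0% of tested genes, and GGGCGG in 21 of 24, against 66.2%. Both letter sets were found among members that rose and members that fell in high glucose. The counts were 5 of 5 that rose and 8 of 9 that fell for CCAAT, and 4 of 5 and 9 of 9 for GGGCGG. Among members not called, 6 of 10 had CCAAT and 8 of 10 had GGGCGG. Dhcr7 is among those counted for CCAAT, but the stretch printed for it holds no CCAAT on either strand, only GGGCGG. Its match thus lies outside the printed bases, at a position not given here. The LXR element in its DR4 form was found in 0 of 24 members, and in 0% of the tested genes with a window. The element of the endoplasmic reticulum stress response (ERSE), added after the values were seen, was also found in 0 of 24, against 0.168% of tested genes. ERSE begins with the letters CCAAT, so every match to it is also a match to that motif. These are letter matches in a short window and not measured binding sites.

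In the mevalonate arm, from acetyl-CoA to farnesyl diphosphate, 2 of 7 genes rose and 3 fell in high glucose against control. Hmgcs1, which makes HMG-CoA, the precursor of mevalonate (ENSMUSG00000093930, chr13:119690379-119708260, GRCm38), had 437, 407 and 431 CPM in high glucose, 289, 310 and 304 CPM in AGEs, and 285, 341 and 273 CPM in control. All 3 high glucose libraries lay above the other 6. It rose by 0.50 ± 0.09 on the log2 scale (estimate ± SE, adjusted p = 0.00153), which is 1.42-fold. Pmvk, the kinase of phosphomevalonate, had 105, 101 and 91.0 CPM in high glucose, 56.2, 58.4 and 57.3 CPM in AGEs, and 63.5, 60.6 and 64.2 CPM in control. It was 1.58-fold higher in high glucose (adjusted p = 0.000134), and again no high glucose library overlapped another group.

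The later steps of the same arm went down. Mvd, which decarboxylates diphosphomevalonate, had 75.4, 79.4 and 63.7 CPM in high glucose, 95.8, 107 and 93.0 CPM in AGEs, and 115, 111 and 135 CPM in control. The 3 groups did not overlap, with high glucose lowest and control highest, and Mvd was 1.65-fold lower in high glucose than in control (adjusted p = 0.000767). Idi1, which interconverts the 2 isoprene units, had 162, 149 and 148 CPM in high glucose, 252, 185 and 205 CPM in AGEs, and 228, 234 and 192 CPM in control. High glucose lay below all other libraries, with a log2 fold change of −0.51 ± 0.12 against control (adjusted p = 0.00799). With library totals alone that change was −0.33, with an adjusted p of 0.0559.

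Fdps, the synthase of farnesyl diphosphate from which sterols, dolichol, ubiquinone and prenyl groups branch (ENSMUSG00000059743, chr3:89093588-89101959), showed the clearest order of the 3 groups. It had 489.7, 478 and 425 CPM in high glucose, 605, 669 and 739.6 CPM in AGEs, and 861, 820.1 and 871 CPM in control. No library of one group overlapped another, and Fdps was 1.83-fold lower in high glucose than in control (log2 fold change −0.87 ± 0.09, adjusted p = 6.04e-05). The other 2 genes of the arm were not called. Mvk, mevalonate kinase, had a log2 fold change of 0.04 (95% interval −0.26 to 0.35). Acat2, the cytosolic acetyl-CoA acetyltransferase and not a cholesterol acyltransferase, had 0.19 (−0.31 to 0.68), and its reads are uncertain because the close copy Acat3 took 661 to 1716 counts per library.

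**Figure D2:**
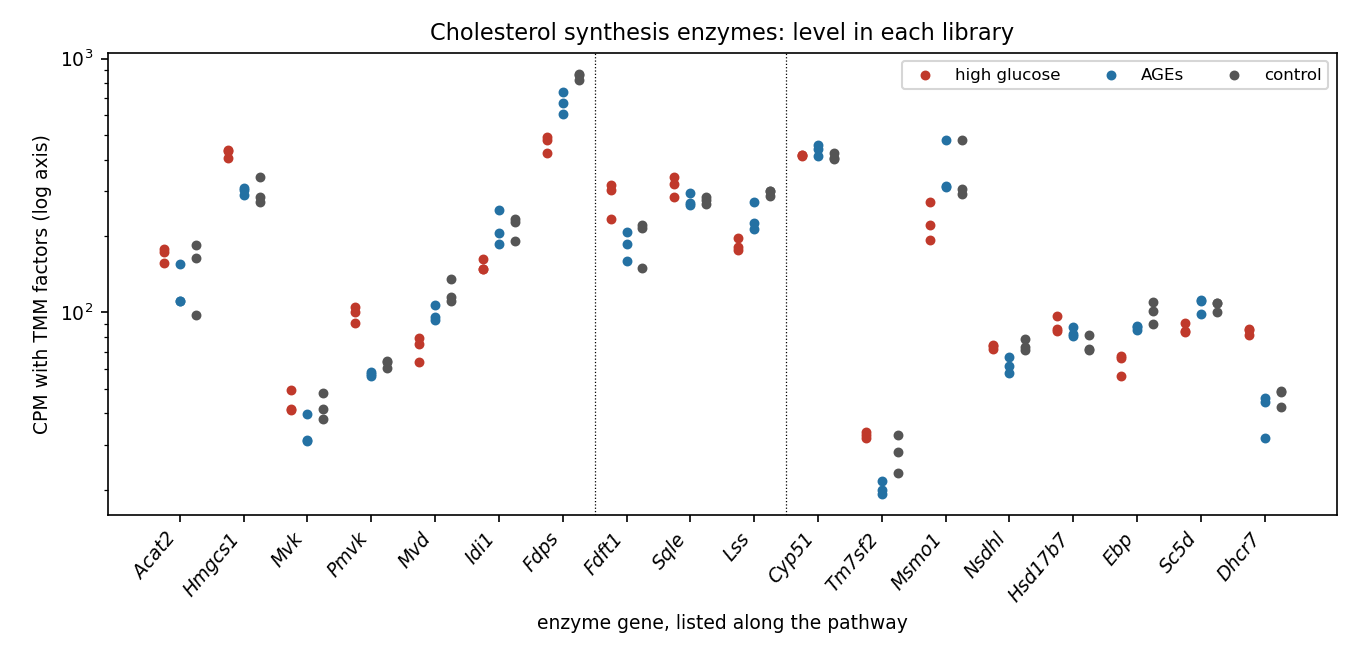
Level of the 18 synthesis enzymes in each library, as CPM with TMM factors on a log axis, listed along the pathway, with high glucose, AGEs and control side by side for each gene and 1 point per library. Levels can be compared between groups within a gene but not between genes, since CPM is not per length. Dotted lines part the mevalonate arm, the steps from squalene to lanosterol and the steps from lanosterol to cholesterol, and the high glucose points are above control for Hmgcs1, Pmvk, Fdft1, Hsd17b7 and Dhcr7, among others, and below it for Mvd, Idi1, Fdps, Lss, Msmo1, Ebp and Sc5d.

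Between farnesyl diphosphate and lanosterol, 1 of 3 genes rose and 1 fell in high glucose against control. Lss, the cyclase that forms lanosterol, had 182, 176 and 197 CPM in high glucose, 271, 213 and 225 CPM in AGEs, and 288, 301 and 302 CPM in control. The 3 groups did not overlap, and Lss was 1.60-fold lower in high glucose than in control (log2 fold change −0.68 ± 0.09, adjusted p = 0.000387). Fdft1, squalene synthase, had 316, 233 and 304 CPM in high glucose, 186, 208 and 159 CPM in AGEs, and 222, 215 and 149 CPM in control. High glucose lay above control, with 1 library close to it, and the log2 fold change was 0.54 ± 0.17 (adjusted p = 0.0317). It did not stay under the threshold when high glucose library 1 (adjusted p = 0.107), high glucose library 3 (0.0933) or control library 3 (0.0872) was left out. Fdft1 shares 774 exon bases with Ctsb, a more abundant gene on the opposite strand whose own log2 fold change was 0.01, so reads of that stretch are uncertain. Sqle, squalene epoxidase, had a log2 fold change of 0.19 (0.02 to 0.37, adjusted p = 0.0808), which passed the threshold without high glucose library 2 (adjusted p = 0.0334). Library totals alone gave 0.37 for Sqle (adjusted p = 0.00288).

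From lanosterol to cholesterol, 2 of 8 genes rose and 3 fell in high glucose against control. Dhcr7, which reduces 7-dehydrocholesterol to cholesterol (ENSMUSG00000058454, chr7:143823145-143848410), had 86.3, 85.1 and 81.3 CPM in high glucose, 31.9, 44.2 and 45.8 CPM in AGEs, and 49.1, 48.5 and 42.4 CPM in control. High glucose libraries lay far above the other 6, which overlapped each other. Dhcr7 rose by 0.85 ± 0.13 on the log2 scale (1.80-fold, adjusted p = 0.000817). Hsd17b7, a keto-reductase of the same stretch, had 86.2, 84.3 and 97.1 CPM in high glucose, 87.6, 82.2 and 81.0 CPM in AGEs, and 72.1, 81.8 and 70.8 CPM in control. Its rise of 0.25 ± 0.09 was weak (adjusted p = 0.0435), and the call held without AGEs library 3 or control library 2 but was lost without any one of the other 7 libraries (adjusted p 0.0525 to 0.155).

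The enzymes that fell in this stretch were Ebp, Sc5d and Msmo1. Ebp, the sterol isomerase, had 66.4, 67.6 and 56.2 CPM in high glucose, 88.3, 87.3 and 85.4 CPM in AGEs, and 102, 90.3 and 109.8 CPM in control. High glucose lay below both other groups, and Ebp was 1.59-fold lower than in control (adjusted p = 0.000542). Sc5d, the desaturase that acts next, had 90.9, 84.3 and 83.6 CPM in high glucose, 111, 112 and 98.3 CPM in AGEs, and 109, 109 and 100.2 CPM in control. High glucose again lay lowest, and the log2 fold change was −0.30 ± 0.08 (adjusted p = 0.0135). Leaving out high glucose library 2, control library 1 or control library 2 gave an adjusted p of 0.0506, 0.0528 or 0.0503, and library totals alone gave −0.12 (adjusted p = 0.274). Msmo1, the methylsterol oxidase, had 221, 193 and 271 CPM in high glucose, 313, 315 and 479 CPM in AGEs, and 307, 477 and 292 CPM in control. AGEs library 3 and control library 2 were high, the high glucose libraries were the lowest 3, and the adjusted p of 0.0493 for the log2 fold change of −0.65 ± 0.23 stayed under the threshold in 6 of 18 settings. It passed 0.05 without high glucose library 1 or 2, AGEs library 1 or 2, or control library 1 or 2 (0.0542 to 0.191).

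The other 3 genes of the stretch were not called. Cyp51 had a log2 fold change of 0.02 (−0.12 to 0.15) and Nsdhl, a sterol dehydrogenase, of −0.01 (−0.19 to 0.16). For Cyp51 library totals alone gave 0.19 (adjusted p = 0.0199), within the shift of all genes. Tm7sf2, a sterol reductase, had 31.9, 33.0 and 33.7 CPM in high glucose, 19.9, 21.6 and 19.3 CPM in AGEs, and 28.3, 23.3 and 32.8 CPM in control. AGEs lay lowest, high glucose and control overlapped, and the log2 fold change of high glucose against control was 0.22 (−0.06 to 0.51). Library totals alone gave 0.40 for Tm7sf2 (adjusted p = 0.028). Tm7sf2 shares 532 exon bases with Vps51 on the same strand, and Vps51 itself changed by −0.36 on the log2 scale (adjusted p = 0.0139).

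Of the 4 sensing genes, 1 rose and 1 fell in high glucose against control. Scap, the escort of SREBP-2, had 79.4, 77.2 and 82.7 CPM in high glucose, 105, 112 and 110.3 CPM in AGEs, and 109.5, 115 and 117 CPM in control. High glucose lay below all other libraries, and Scap fell by 0.51 ± 0.07 on the log2 scale (1.43-fold, adjusted p = 0.000244). Insig1, which retains SCAP and is itself a target of SREBP-2, had 224, 221 and 231 CPM in high glucose, 174, 176 and 151 CPM in AGEs, and 192, 200.1 and 169 CPM in control. It rose by 0.27 ± 0.09 (adjusted p = 0.0321), a call lost without any 1 of the 3 high glucose libraries, control library 1 or control library 3 (adjusted p 0.0640 to 0.102).

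Srebf2 itself had 511, 527 and 540.4 CPM in high glucose, 415, 439 and 491.1 CPM in AGEs, and 443, 457 and 490.9 CPM in control. High glucose lay above both other groups, yet the log2 fold change of 0.18 (0.01 to 0.35) had an adjusted p of 0.0857, and of 0.0417 without AGEs library 3. With library totals alone it was 0.36 (adjusted p = 0.00305). Insig2 had a log2 fold change of −0.07 (−0.27 to 0.14).

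Stard4 and Stard5 encode small soluble proteins that carry sterol between membranes. Stard5 (ENSMUSG00000046027, chr7:83631959-83642328) had 9.48, 10.8 and 9.76 CPM in high glucose, 76.7, 76.9 and 75.3 CPM in AGEs, and 71.6, 71.4 and 79.6 CPM in control. High glucose libraries lay far below the other 6, which overlapped. Stard5 was 7.42-fold lower in high glucose than in control (log2 fold change −2.89 ± 0.09, adjusted p = 1.42e-07). Among all genes tested, 13.7% were called with at least a 2-fold change in this comparison, and Stard5 and Soat2 were the members that were. Stard5 stayed called with any 1 library left out.

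Stard4 did not share that change. It had a log2 fold change of 0.25 (0.03 to 0.46, adjusted p = 0.0652), and an adjusted p of 0.0481 without high glucose library 1. Library totals alone gave 0.42 for Stard4 (adjusted p = 0.00783). Per length, the ratio of Stard5 to Stard4 FPKM was 0.0697, 0.0740 and 0.0590 in high glucose, 0.538, 0.618 and 0.583 in AGEs, and 0.544, 0.553 and 0.687 in control. The ratio does not depend on library scaling, and high glucose lay below all other libraries. Gm45838, a low gene that shares 101 exon bases with Stard5 on the same strand, had 593 counts in all, against 31826 for Stard5, and fell by 3.12 (adjusted p = 0.00852).

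**Figure D3:**
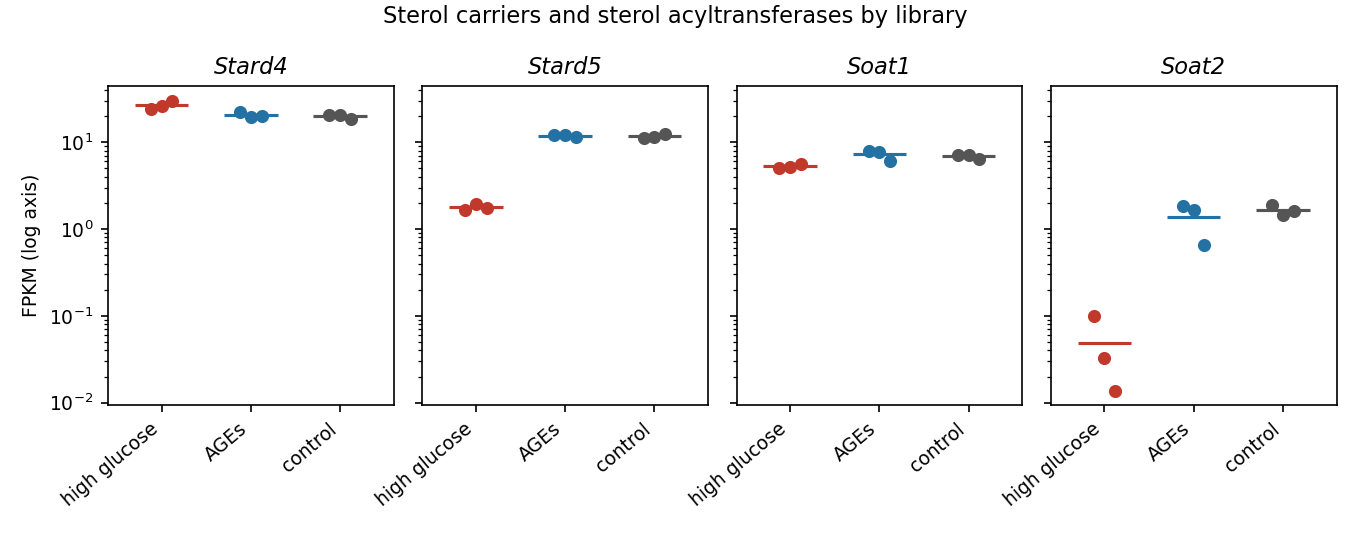
Level of the sterol carriers Stard4 and Stard5 and the acyltransferases Soat1 and Soat2 in each library of high glucose, AGEs and control, as deposited FPKM on a log axis, with 1 point per library and a line at the mean of the 3. Stard5 in high glucose sits at 1.66 to 1.93 FPKM, against 11.3 to 12.6 FPKM in control, and Soat2 at 0.0138 to 0.101 FPKM, against 1.65 ± 0.228 FPKM in control (mean ± SD, n = 3).

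Both acyltransferases, which join cholesterol to a fatty acid for storage, fell in high glucose against control. Soat1, the widely expressed form, had 51.7, 51.6 and 55.8 CPM in high glucose, 90.7, 87.2 and 71.0 CPM in AGEs, and 80.3, 79.0 and 73.7 CPM in control. High glucose lay below the other 2 groups, which overlapped, and Soat1 was 1.46-fold lower than in control (log2 fold change −0.55 ± 0.10, adjusted p = 0.0019).

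Soat2, the form best known from intestine and liver (ENSMUSG00000023045, chr15:102150526-102163469), had 20, 4 and 3 counts in high glucose, 306, 297 and 119 counts in AGEs, and 312, 254 and 247 counts in control. That is 0.241, 0.0788 and 0.0378 CPM in high glucose, 4.68, 4.30 and 1.73 CPM in AGEs, and 4.90, 3.69 and 4.14 CPM in control. High glucose lay below every other library, and AGEs library 3 was the lowest of the rest. Soat2 fell by 5.09 ± 0.62 on the log2 scale (34.0-fold, 95% interval −6.49 to −3.69, adjusted p = 0.000201). The size is loose because it rests on 27 counts in high glucose: without high glucose library 1 it was −6.22, and on log2(FPKM + 1), which compresses low genes, −1.34. Of the hepatocyte and enterocyte markers, from the cells known for Soat2, 1 of 5 tested genes rose (Cdx2, at 1.48 on the log2 scale) and 0 fell. Among all genes tested, 19.6% were called higher and 19.7% lower. The markers summed to 25.5 to 43.9 CPM in high glucose, 3.45 to 49.0 CPM in AGEs and 26.8 to 52.0 CPM in control. Most of that sum was Alb, with 18519 counts over the 9 libraries, against 956 for Cdx2, the next. Alb had 8 to 3274 counts per library and a log2 fold change of −0.41 (−2.86 to 2.04). The part of these cells in the fall of Soat2 was not tested. Per length, Soat2 was 0.00246 to 0.0199 of Soat1 in high glucose, 0.107 to 0.228 in AGEs and 0.207 to 0.269 in control.

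None of the 4 efflux and receptor genes was called in high glucose against control by edgeR or DESeq2, and none had an unadjusted edgeR p under 0.05. Abcg1, which exports cholesterol to high-density lipoprotein, had 12.8, 11.0 and 10.8 CPM in high glucose, 6.97, 6.22 and 4.92 CPM in AGEs, and 10.2, 8.73 and 9.74 CPM in control. The 3 groups did not overlap, with high glucose highest and AGEs lowest. The log2 fold change of high glucose against control was 0.27 (−0.07 to 0.62). Nr1h2, which encodes LXR beta, had 0.12 (−0.10 to 0.34). Both passed the threshold with library totals alone, Abcg1 at 0.45 (adjusted p = 0.0438) and Nr1h2 at 0.30 (adjusted p = 0.039). Abca1, the transporter that loads apolipoprotein A-I, had 0.01, with a 95% interval of −0.81 to 0.84, so that changes of either sign within those bounds are not excluded. The interval is unadjusted and does not give the smallest change that could have been called.

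**Figure D4:**
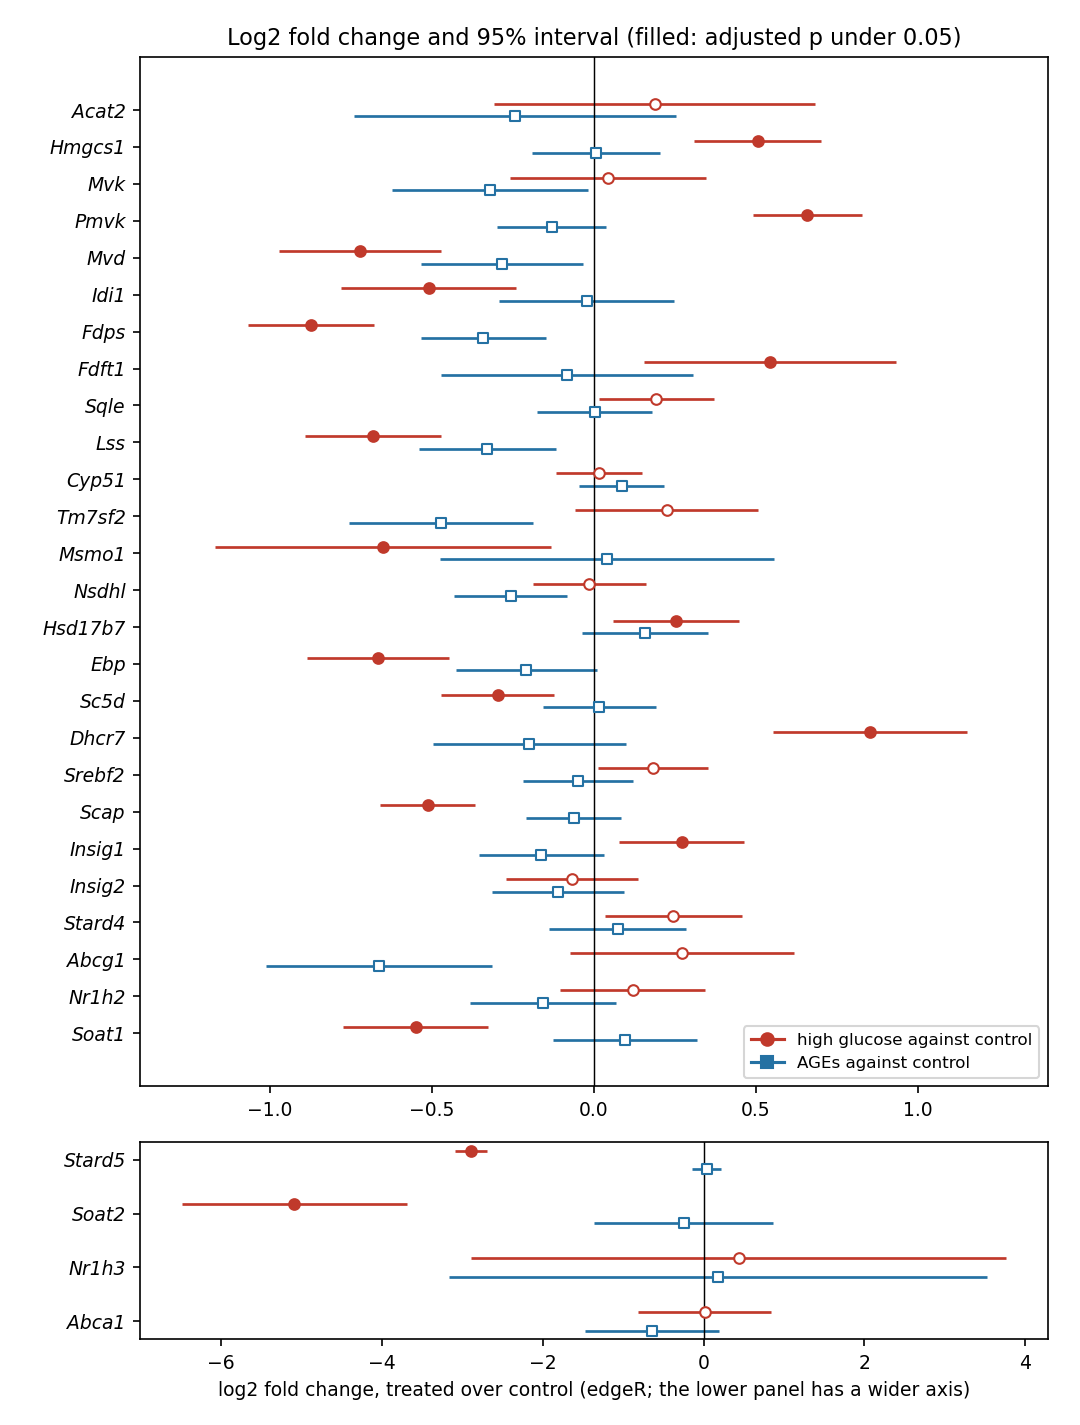
Log2 fold change of each of the 30 genes with its 95% interval from the edgeR fit, for high glucose against control (red circles) and AGEs against control (blue squares), which share the control libraries; filled symbols have an adjusted p under 0.05, and the lower panel holds 4 genes on a wider axis. Of the red symbols 6 are filled on the higher side and 11 on the lower side, and of the blue symbols 0 are filled.

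Around these 30 genes, 6 further lists of sterol genes held 61 tested genes, of which 19 rose and 14 fell in high glucose against control. That is 54.1%, against 39.3% of all genes tested. In the separate fit kept to genes with a mean of at least 1 CPM, 51.3% of genes were called. The 61 genes include some below that level and were not counted in that fit, so 54.1% and 51.3% are not like for like. In each list below, the counts stand against 19.6% of all genes called higher and 19.7% called lower. Of 8 lipoprotein receptors and their regulators, 6 rose and 0 fell. Lrp1, an endocytic receptor, was 4.07-fold higher (66.3 ± 16.5 CPM in high glucose and 16.3 ± 0.638 CPM in control, adjusted p = 6.75e-05). The sorting receptor Sorl1 was 2.83-fold higher, and Mylip, a ubiquitin ligase that degrades lipoprotein receptors, 1.93-fold higher. Of 15 genes of sterol transfer and endosomal export, 1 rose and 7 fell. Tmem97 fell by 0.90 and Osbp by 0.60 on the log2 scale, while Scp2, a peroxisomal sterol carrier, rose by 0.69.

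Of 12 genes of SREBP processing and turnover, 2 rose and 4 fell. This count and those of the next lists again stand against 19.6% of all genes called higher and 19.7% called lower. Erlin1, an endoplasmic reticulum protein that takes part in sterol-regulated degradation, was 3.52-fold lower (91.3 ± 5.44 CPM in high glucose and 322 ± 19.1 CPM in control, adjusted p = 5.32e-07). Srebf1, which encodes the fatty acid regulator SREBP-1, rose by 0.53 on the log2 scale. Of 8 LXR partners and targets 5 rose and 0 fell, with Rxra, the partner receptor, at 1.14, Nr1d1 at 1.16 and Lpcat3 at 0.68 on the log2 scale. In ester hydrolysis and oxysterol metabolism 2 of 8 rose, the esterase Lipe by 0.82 and the sulfotransferase Sult2b1 to 7.39 ± 1.78 CPM in high glucose against 3.70 ± 1.21 CPM in control, and 0 fell. In the non-sterol isoprenoid branch, 3 of 10 rose and 3 fell, with Nus1, of dolichol synthesis, at −0.77, Pdss1, of ubiquinone synthesis, at −0.85 and Fntb, a prenyltransferase subunit, at 0.79. All of these are edgeR values from the same fit.

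AGEs were set against the same control libraries, which the comparison above also used. By edgeR 0 of 30 members were called, against 0.0848% of all genes tested (15 genes, with 0.0509% higher, 0.0339% lower and 0.0509% called with at least a 2-fold change). At an unadjusted p under 0.05 there were 7 members and 2190 genes, and DESeq2 called 3 members and 325 genes. The members' log2 fold changes lay between −0.66 and 0.18, with a median of −0.12 against −0.0047 for all genes, and 20 of 30 were negative. In 9 members (Pmvk, Mvd, Fdps, Lss, Tm7sf2, Nsdhl, Ebp, Abcg1 and Nr1h2) the 2 groups did not overlap, as for 19.2% of all genes, and in all 9 AGEs lay lower.

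Of these, the 3 that DESeq2 called lower were Abcg1 (adjusted p = 0.0141), Fdps (0.0402) and Tm7sf2 (0.0439). By edgeR, Abcg1 had a log2 fold change of −0.66 in AGEs against control (95% interval −1.01 to −0.32, adjusted p = 0.227), with 6.04 ± 1.03 CPM in AGEs and 9.56 ± 0.754 CPM in control. Fdps had −0.34 (−0.54 to −0.15, adjusted p = 0.255) and Tm7sf2 −0.47 (−0.76 to −0.19, adjusted p = 0.262). The other 4 intervals that excluded 0 were those of Lss at −0.33, Mvk at −0.32, Mvd at −0.28 and Nsdhl at −0.26, all unadjusted. Both members with the largest falls in high glucose, and Soat1, had intervals here that included 0. Stard5 had a log2 fold change of 0.04 (−0.14 to 0.22) in AGEs against control, Soat1 0.10 (−0.13 to 0.32) and Soat2 −0.25 (−1.36 to 0.86). Without AGEs library 3 the members called by edgeR were again 0. None of the 61 genes of the other sterol lists was called in AGEs against control either.

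High glucose was set against AGEs to test the difference between the 2 treatments directly. Of the 30 members, 9 were higher and 11 lower in high glucose, which is 66.7%, against 39.9% of all genes tested (20.2% higher and 19.7% lower). In the separate fit kept to genes with a mean of at least 1 CPM, the shares called were 82.1% of 28 members and 51.7% of all its genes. Stard5, Soat2 and Dhcr7 were called with at least a 2-fold change, as were 13.9% of all genes. The libraries did not overlap for 23 members, as for 52.5% of all genes. With library totals alone 15 members were higher and 6 lower, 69.4% of all calls were higher in place of 50.6%, and the median of all genes was 0.21 in place of 0.02. Without AGEs library 3, 8 were higher and 10 lower.

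Stard5 was 7.63-fold lower in high glucose than in AGEs (log2 fold change −2.93 ± 0.09, adjusted p = 1.41e-07) and Soat2 28.6-fold lower (0.119 ± 0.108 CPM and 3.57 ± 1.60 CPM, adjusted p = 0.000245). Without high glucose library 1 the log2 fold change of Soat2 was −5.97 in place of −4.84. Dhcr7 was 2.07-fold higher in high glucose (log2 fold change 1.05 ± 0.13, adjusted p = 0.000235). Abcg1 was 1.91-fold higher (11.5 ± 1.07 CPM in high glucose and 6.04 ± 1.03 CPM in AGEs, adjusted p = 0.00115), and Tm7sf2 1.62-fold higher (adjusted p = 0.00191). Nsdhl had 74.0, 74.5 and 71.7 CPM in high glucose, 57.9, 66.7 and 61.5 CPM in AGEs, and 71.0, 73.0 and 78.3 CPM in control. The AGEs libraries were the lowest 3, and Nsdhl was 1.18-fold higher in high glucose than in AGEs (adjusted p = 0.0314).

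The other members called higher in high glucose than in AGEs were Hmgcs1 (0.50), Pmvk (0.79), Fdft1 (0.63), Srebf2 (0.23) and Insig1 (0.43), each as a log2 fold change. Those called lower were Mvd (−0.44), Idi1 (−0.49), Fdps (−0.53), Lss (−0.35), Msmo1 (−0.69), Ebp (−0.46), Sc5d (−0.31), Scap (−0.45) and Soat1 (−0.65). With library totals alone, the lower calls of Mvd, Idi1, Lss, Msmo1 and Sc5d were lost. Their log2 fold changes were then −0.49 to −0.12 (adjusted p 0.088 to 0.288). The same calls were lost on log2(FPKM + 1) and on log2(FPKM + 0.1). Calls rested on single libraries for 5 of the 20. Fdft1 was lost without high glucose library 1 or 3 or AGEs library 3, and Lss without high glucose library 2. Msmo1 was lost without high glucose library 1 or 2 or AGEs library 3. Nsdhl was lost without any 1 high glucose library, AGEs library 1 or 3 or control library 1, and Srebf2 without any 1 high glucose library, AGEs library 1 or 2 or control library 1. Past the threshold in all 18 alternative settings were Hmgcs1, Pmvk, Tm7sf2, Dhcr7, Insig1 and Abcg1, which were higher in high glucose, and Fdps, Ebp, Scap, Stard5, Soat1 and Soat2, which were lower. A call was gained by 5 members when 1 library was left out: Abca1 without AGEs library 2, Mvk without AGEs library 3, Acat2 without control library 2, Nr1h2 without high glucose library 3 and Sqle without high glucose library 2.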

How the data were processed

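The deposited table holds raw counts and, beside them, FPKM (fragments divided by transcript length and library depth) for each of the 9 libraries, as its headers name them. The submitters' processing notes list the build GRCm38, cutadapt 1.9 and FastQC. No source used here states the aligner, counting tool, annotation release or strand setting, so reads of overlapping genes and close copies are uncertain. In the deposited FPKM columns a count of 0 is written as 0.0001. Low counts fell on 4 and 8 more often than on their neighbours (9186 and 4896 entries, against 2519 at 3 and 1632 at 7), so 1 fragment may have added more than 1 count to low genes such as Soat2 and Nr1h3.

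From the deposited counts, differences were tested with edgeR 4.0.16 in R 4.3.3 (filterByExpr, TMM factors of 0.935 to 1.10, quasi-likelihood fit of all 9 libraries with 3 group means, two-sided). Adjustment was by Benjamini and Hochberg over 17680 genes, and genes were called under 0.05. CPM used the TMM factors. The SE of a log2 fold change was its size divided by the square root of F, and intervals are 95% and unadjusted. The common biological coefficient of variation was 0.278. The procedure was tested on simulated counts. Replicate libraries differed by more than sampling noise (chi-square per degree of freedom 48.1 to 111), so none was a copy of another and each was counted. That does not show that they came from separate cultures. Total counts of 46284878 to 77242281 set the precision, which is low for Nr1h3, Abca1 and Soat2.

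Alternatives were other scaling, DESeq2 1.42.0, other filters, only the groups compared, the replicate number as a block, limma 3.58.1 on log2(FPKM + 1) and log2(FPKM + 0.1), and each library left out. Values in every library are given for members called in any comparison or changed at least 2-fold, and for each other list up to 3 called genes with the smallest p. A gene that this rule names is not reported here. Promoter windows are from a table made from RefSeq (GRCm38.p6), in which 24 of the 30 members had an entry. Exon overlaps were taken from the GENCODE mouse release 21 annotation, where 26 members had the same coordinates. The members and lists were chosen with earlier results of these data known.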

Additional observations from a re-analysis of the deposited data

How the results depend on the processing

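Across the 18 alternatives no member called in edgeR reversed, but counts moved with scaling. For high glucose against control, the members called higher numbered 13 with library totals only, 13 with limma on log2(FPKM + 1) and 12 with limma on log2(FPKM + 0.1), in place of 6, and the members called lower 8 under each, in place of 11. With 1 library left out, 3 to 7 members were called higher and 9 to 11 lower, and 5737 to 7308 genes were called. The 3 came without high glucose library 3 or control library 3. For high glucose against AGEs, 15, 14 and 15 members were higher and 6, 6 and 6 lower with the same 3 settings, in place of 9 and 11. With 1 library left out, 6 to 10 were higher and 9 to 11 lower, and 5975 to 7134 genes were called. The 6 came without high glucose library 1. For AGEs against control, DESeq2 called 325 genes and 3 members lower, and the replicate block 5 genes, in place of 15 and 0. With 1 library left out, 10 to 21 genes and 0 members were called, the 10 without control library 1. The cause of these shifts was not tested. Same-numbered libraries of 2 groups correlated at −0.067 to 0.084 in their deviations, and differently numbered ones at −0.069 to 0.074. No pairing by number was seen, but small shared effects could be missed beside the noise of single libraries. With the replicate block, 5 members were higher and 10 lower in high glucose against control (6322 genes), 8 and 10 in high glucose against AGEs (6390 genes), and 0 in AGEs against control. Depth limits Nr1h3 and Abca1, whose log2 intervals in high glucose against control ran from −2.89 to 3.76 and from −0.81 to 0.84.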
